A study of Mus musculus with 12 samples.

Results

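The genes followed here encode enzymes of glycolysis from hexokinase to enolase, and lactate dehydrogenase. In pathway order they are Hk2, Gpi1, Pfkl, Aldoa, Tpi1, Gapdh, Pgk1, Pgam1, Eno1 and Ldha. They were taken by symbol from the deposited gene count table, as 10 of its 23358 rows. All 10 passed the filter on low counts, which left 16190 genes. They were chosen because Gapdh, a gene with many pseudogenes, was known to differ between the mouse strains in these counts, so that strain difference chose them and is given below as a description with no test. The genotype comparisons were not used in the choice and were tested.

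RNA was sequenced from the frontal bone of mice at postnatal day 3, dissected together with nasal bone and with the coronal and frontonasal sutures. The 12 samples formed 4 groups of 3: wild type and FGFR2C342Y/+ mice on the C57BL/6 background, and wild type and FGFR2C342Y/+ mice on the BALB/c background. FGFR2C342Y/+ animals carry 1 copy of the fibroblast growth factor receptor allele with the change C342Y, a model of Crouzon syndrome, in which cranial sutures close early. The series design compared the mutation between the 2 backgrounds. The tissue was digested in collagenase and trypsin before RNA was extracted, and the labels do not say how many animals gave each sample, so p-values measure the spread between samples, which may be technical. By their run names, the C57BL/6 libraries were all read on 1 flow cell and the BALB/c libraries on another, so strain and flow cell cannot be told apart. In bulk tissue, fewer cells of a type and less RNA per cell cannot be told apart either.

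Glycolysis splits glucose into pyruvate with a small net gain of ATP and needs no oxygen. Lactate dehydrogenase then regenerates the NAD+ that the Gapdh step consumes. Osteoblasts, the cells that form bone, are known to use glycolysis heavily even when oxygen is present. Gapdh is also a common reference gene in expression assays, on the assumption that its level stays constant.

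Library totals ran from 27181658 to 46521546 counts. The summed level of 8 osteoblast genes was 112569 to 195398 CPM (counts-per-million, on TMM-scaled library sizes) in C57BL/6 wild type, 217489 to 260663 in C57BL/6 mutants, 187012 to 209170 in BALB/c wild type and 183867 to 197898 in BALB/c mutants, and each gene was detected in each group. Other tissues differed between samples. The 8 markers of ciliated and secretory epithelium summed to 159 to 495 CPM in C57BL/6 wild type, against 3.15 to 4.68 CPM in BALB/c. In C57BL/6 mutants they summed to 91.0 CPM in replicate 4 and to 3.20 and 3.39 CPM in the other samples. The 8 skeletal muscle markers reached 441 CPM in BALB/c mutant replicate 16 and 83.1 CPM in C57BL/6 wild type replicate 2, and were at 2.13 to 28.6 CPM in the other 10 samples.

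Gapdh and Eno1 have coding sequence that stands almost unchanged at other places in the genome, which bears on how reads can be assigned to them. Gapdh, glyceraldehyde-3-phosphate dehydrogenase, lies on chromosome 6 from 125161852 to 125165583 in the count table. In the GENCODE vM21 transcripts (GRCm38), 681 of the 682 stretches of 60 coding bases that lie within 1 exon of Gapdh occurred letter for letter in at least 1 other gene. The stretch with the most copies, in exon 4, was unchanged in 68 other genes. It is printed with 2 processed pseudogenes that match it and 1 that does not, capitals marking the differing bases.
Gapdh, chr6:125162896-125162955, minus strand: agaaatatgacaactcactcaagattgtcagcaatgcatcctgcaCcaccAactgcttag
Gm7336, chr7:51747103-51747162, plus strand: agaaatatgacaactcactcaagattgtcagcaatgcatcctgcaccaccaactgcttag
Gm10359, chr5:105863237-105863296, minus strand: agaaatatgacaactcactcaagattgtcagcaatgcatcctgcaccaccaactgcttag
Gm8565, chr3:69566970-69567029, minus strand: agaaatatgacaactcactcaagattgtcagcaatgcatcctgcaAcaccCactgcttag
Counted from 1 at the 5′ end, Gm8565 differs from Gapdh by C46A and A51C, while Gm7336 and Gm10359 differ at no base.

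Eno1, enolase, which makes phosphoenolpyruvate, lies on chromosome 4 from 150237197 to 150248873 in the table. Of its 653 such stretches, 532 (81.5%) were unchanged in another gene. A stretch of exon 8 is printed with the processed pseudogene Gm4735, to show a copy with a single difference, T31C.
Eno1, chr4:150246598-150246657, plus strand: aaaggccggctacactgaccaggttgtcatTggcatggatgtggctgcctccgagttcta
Gm4735, chr2:80837836-80837895, plus strand: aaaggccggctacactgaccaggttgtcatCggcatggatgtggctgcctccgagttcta

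The mRNAs of the 10 enzymes differed widely in how much of their sequence is shared. As a measure, each mRNA was cut into all its overlapping words of 50 bases, and the percentage of words found in a transcript of any other gene was taken. The share was 90.4% for Gapdh, with 117 of 1224 words unique to it. It was 72.2% for Eno1, 68.0% for Pgk1, 41.5% for Pgam1, 25.3% for Gpi1, 16.6% for Ldha, 13.5% for Aldoa, 7.51% for Tpi1 and 0.0543% for Pfkl. No word of Hk2 was found elsewhere. With words of 100 bases the shares of Gapdh, Pgk1, Eno1 and Pgam1 were 85.8%, 67.0%, 59.0% and 39.7%.

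**Figure D1:**
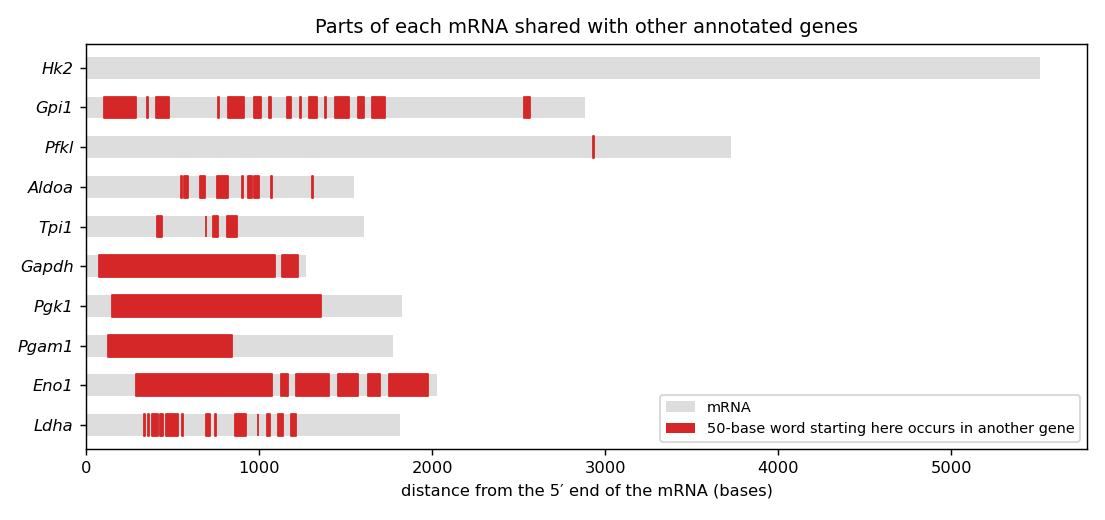
Positions along the mRNA of each enzyme gene, in bases from the 5′ end, at which a 50-base word also found in another annotated gene begins (red) on the full mRNA (grey). Red covers most of Gapdh, Eno1 and Pgk1 and none of Hk2.

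The copies were of different kinds. Gapdh shared words with 222 genes, 213 of them pseudogenes, and 21 of these genes held over 50% of its words. Eno1 shared words with 9 genes, led by the protein-coding Eno1b with 70.5% of its words and by Gm4735 with 52.8%. For Pgk1, phosphoglycerate kinase, the pseudogene Pgk1-rs7 held 67.9% of the words. For Pgam1, phosphoglycerate mutase, Pgam1-ps2 held all of the shared 41.5%. Of the copies, 9 genes that share words with Gapdh had a row under the same symbol in the count table, while none that share words with Eno1, Pgk1 or Pgam1 had one.

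The level of Gapdh was far lower in C57BL/6 than in BALB/c samples. In C57BL/6 wild type it was 14.6, 14.3 and 15.4 CPM, and in C57BL/6 mutants 11.9, 13.4 and 12.6 CPM. In BALB/c wild type it was 72.7, 70.8 and 82.5 CPM, and in BALB/c mutants 70.0, 64.7 and 74.3 CPM. Every BALB/c sample lay above every C57BL/6 sample of the same genotype. The wild type means (± SD, n = 3) were 75.4 ± 6.27 CPM in BALB/c and 14.8 ± 0.602 CPM in C57BL/6, a ratio of 5.10. In mutants the ratio was 5.51. On the log2 scale BALB/c minus C57BL/6 was 2.35 (95% interval 2.18 to 2.52) in wild type and 2.46 (2.29 to 2.63) in mutants. The intervals printed with strain differences describe the spread between samples and are not read as tests.

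Eno1 showed the same order at a much lower level. It was at 3.84, 2.47 and 2.95 CPM in C57BL/6 wild type, 2.71, 2.18 and 1.99 CPM in C57BL/6 mutants, 9.92, 9.51 and 9.66 CPM in BALB/c wild type and 7.19, 9.64 and 9.35 CPM in BALB/c mutants. The strains did not overlap in either genotype. BALB/c minus C57BL/6 was 1.65 (1.24 to 2.05) in wild type and 1.92 (1.52 to 2.33) in mutants on the log2 scale. The counts behind these levels were 74 to 448 for Eno1 and 468 to 3020 for Gapdh, against 11204 to 19532 for Ldha.

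Hk2, the inducible hexokinase that traps glucose in the cell, went the other way and was lower in BALB/c in both genotypes, with no overlap between strains. It was at 57.6, 53.0 and 68.5 CPM in C57BL/6 wild type and 26.7, 34.1 and 41.2 CPM in BALB/c wild type. In mutants it was at 73.7, 71.8 and 61.7 CPM on C57BL/6 and 39.8, 36.5 and 43.5 CPM on BALB/c. The log2 difference was -0.81 (-1.12 to -0.50) in wild type and -0.79 (-1.10 to -0.48) in mutants.

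The enzymes on either side of Gapdh in the pathway did not share its strain difference in size. Tpi1, triosephosphate isomerase, supplies the substrate of Gapdh. It was at 136, 149 and 161 CPM in C57BL/6 and 180.1, 169 and 190.1 CPM in BALB/c wild type, a log2 difference of 0.27 (0.09 to 0.46), and of 0.15 (-0.03 to 0.33) in mutants. Pgk1 uses the product of Gapdh. It was at 129, 123 and 149.7 CPM in C57BL/6 and 141, 149 and 160.0 CPM in BALB/c wild type, with overlapping ranges and a difference of 0.16 (-0.04 to 0.36), and of 0.03 (-0.17 to 0.23) in mutants. Pgk1 shares nearly as much of its mRNA with another gene as Eno1 does.

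The other 5 enzymes differed by smaller amounts than Gapdh, Eno1 and Hk2. In wild type, Aldoa, aldolase, differed by 0.53, Pgam1 by 0.41, Ldha by 0.39, Pfkl, the liver-type phosphofructokinase, by 0.15, and Gpi1, glucose-6-phosphate isomerase, by 0.07 on the log2 scale. For Aldoa, Pgam1 and Ldha, at 1.44, 1.33 and 1.31 times the C57BL/6 mean, the wild type strains did not overlap, while Pfkl and Gpi1 overlapped. In mutants the same genes differed by 0.10, 0.25, 0.13, 0.17 and -0.08. Over the 10 genes the median was 0.33 in wild type and 0.14 in mutants, against medians of 0.00 over all genes tested. Without Gapdh and Eno1, the medians of the other 8 were 0.22 and 0.11.

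The CPM ranges of the strains did not overlap for 7 of the 10 genes in wild type (57.5% of all genes) and for 6 of the 10 in mutants (50.2% of all genes). Nothing is read from these counts, because the strain difference chose the genes.

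**Figure D2:**
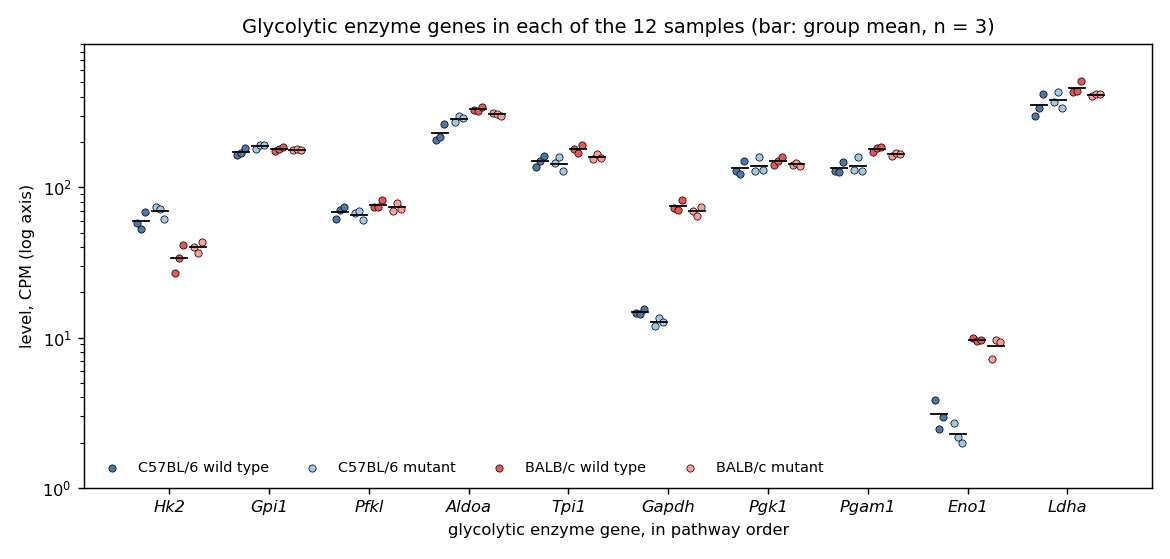
Level of each enzyme gene in CPM, on a log axis, in each of the 12 samples (points), with group means as bars, genes in pathway order. Gapdh and Eno1 stand apart in showing C57BL/6 samples far under BALB/c samples, Gapdh at 11.9 to 15.4 against 64.7 to 82.5 CPM.

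A ratio within a library does not depend on how libraries are scaled, so Gapdh was set against the other 9 enzymes inside each sample. Its log2 CPM minus their mean (± SD, n = 3) was -2.63 ± 0.065 in C57BL/6 wild type and -2.89 ± 0.098 in C57BL/6 mutants. In BALB/c it was -0.60 ± 0.054 in wild type and -0.65 ± 0.12 in mutants. The mean of the other 9 was 6.52 ± 0.12 and 6.56 ± 0.10 log2 CPM in C57BL/6 wild type and mutants, and 6.84 ± 0.086 and 6.77 ± 0.044 log2 CPM in BALB/c (SD, n = 3 each). The ranges of this ratio in the 2 strains did not overlap, with -2.99 to -2.59 over the 6 C57BL/6 samples and -0.79 to -0.56 over the 6 BALB/c samples.

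Compared per kilobase of gene length, Ldha was the highest of the 10 at 208 ± 29.2 CPM per kilobase (SD over 12 samples). Aldoa followed at 158 ± 23.0 and Tpi1 at 98.7 ± 10.9. Pgam1 was at 84.6 ± 11.8 and Pgk1 at 78.4 ± 6.56, and their order depended on the strain. In wild type (± SD, n = 3) Pgam1 was at 73.6 ± 6.17 and Pgk1 at 74.4 ± 7.71 in C57BL/6, within their spread, but at 97.9 ± 4.18 and 83.3 ± 5.18 in BALB/c. In mutants they were at 76.2 ± 9.80 and 77.3 ± 9.16 in C57BL/6, and at 90.7 ± 2.60 and 78.8 ± 1.81 in BALB/c. Gpi1 was at 62.9 ± 2.81. The place of Gapdh also depended on the strain. Its level per kilobase was 61.2 ± 5.09 in BALB/c wild type and 56.5 ± 3.92 in BALB/c mutants (SD, n = 3), the seventh of the 10. It was 11.99 ± 0.489 in C57BL/6 wild type, below Pfkl at 18.5, and 10.3 ± 0.630 in C57BL/6 mutants, below Pfkl at 17.6 and Hk2 at 12.5. Over all 12 samples Pfkl was at 19.1 ± 1.68, Hk2 at 9.20 ± 2.88 and Eno1 at 3.35 ± 1.97. Hk2 and Eno1 also varied between strains as described, which is part of their spreads. Length here is that of the whole gene model, while 117 of 1224 words of Gapdh and 550 of 1978 of Eno1 were unique. How reads that match several places were counted is not given, so the places of Gapdh and Eno1 may not reflect mRNA abundance.

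The authors also deposited a table of their own group comparisons, in which the strain differences of Gapdh and Eno1 have the same direction but are smaller than in the counts. For Gapdh, the authors' deposited table gives a wild type strain difference of 0.40 on the log2 scale (turned to BALB/c minus C57BL/6), a fold of 1.32. The deposited counts gave 2.35. In mutants the authors' deposited table gives 0.45, where the counts gave 2.46. For Eno1 the authors' deposited table gives 1.01 in wild type and 1.18 in mutants, against 1.65 and 1.92 from the counts. For the other 8 enzymes the 2 sources differed by at most 0.17, a gap shown by Aldoa in wild type, where the authors' deposited table gives 0.36 and the counts gave 0.53. DESeq2 run on the deposited counts gave Gapdh differences of 2.34 in wild type and 2.45 in mutants, close to those of edgeR.

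**Figure D3:**
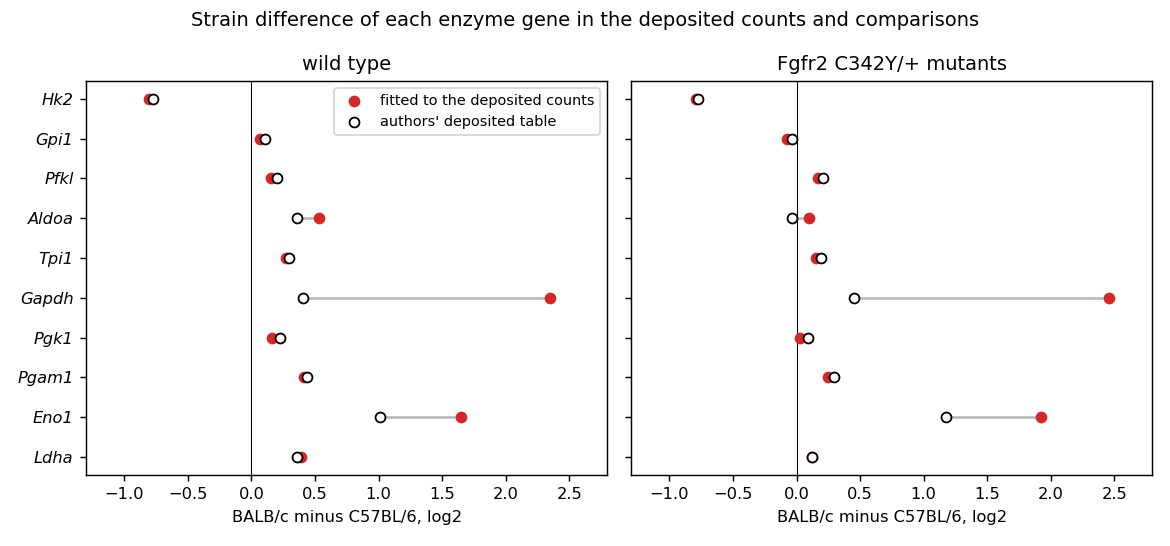
Strain difference of each enzyme gene, BALB/c minus C57BL/6 on the log2 scale, from the edgeR fit to the deposited counts (red) and from the authors' deposited table (open), in wild type and in mutants. The sources lie together for 8 genes and apart for Gapdh, 2.35 against 0.40 in wild type, and Eno1, 1.65 against 1.01.

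Such a gap between the sources was rare. Of 10792 genes in both tables whose wild type strain difference had a standard error under 0.2, the sources differed by more than 1 log2 unit for 17, or 0.158%, and their median absolute difference was 0.03. Gapdh had the sixth largest gap in wild type and the fourth largest in mutants, where 16 of 10811 genes differed by more than 1. The counts gave the more positive value for 16 of the 17 genes in wild type and for all 16 in mutants. More than 50% of the words were shared with other genes in 11 of the 17 genes in wild type and in 10 of the 16 in mutants, and 1 gene in each set had no value. In wild type a gap over 0.5 was found in 0.0387% of 5163 genes that share no word with another gene, 0.309% of 2916 genes that share up to 10%, 1.43% of 1402 that share 10 to 50%, 6.76% of 222 that share 50 to 80% and 6.84% of 117 that share more than 80%. In mutants the percentages in the same order were 0.135%, 0.445%, 1.36%, 7.21% and 5.98%. For the genotype effect the sources differed by more than 1 for 1 of 10822 genes in C57BL/6 and for 0 of 10919 in BALB/c. Which counts entered the authors' comparisons is not given in the sources used here, and what made the sources differ was not tested.

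Across all genes with a value, sharing words went with a modest tilt toward BALB/c in the deposited counts. Among 7798 tested genes that share no word, the median wild type strain difference was -0.00, and 3.53% lay above 1 on the log2 scale. Among 280 genes that share more than 80% of their words, the median was 0.23, with quartiles of -0.22 and 0.64, and 15.4% lay above 1. The shares under -1 were 13.8% and 9.64%. In mutants the medians were -0.01 and 0.14, and the shares above 1 were 6.87% and 12.9%. Gapdh, at 2.35 and 2.46, lay well above the upper quartile of genes as highly shared. The percentage of the library total behind the authors' RPKM values that lay in gene counts also differed between strains, at 75.6% to 80.7% in C57BL/6 and 86.4% to 88.0% in BALB/c. The part of flow cell, read type, mapping and strain in these differences was not tested.

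**Figure D4:**
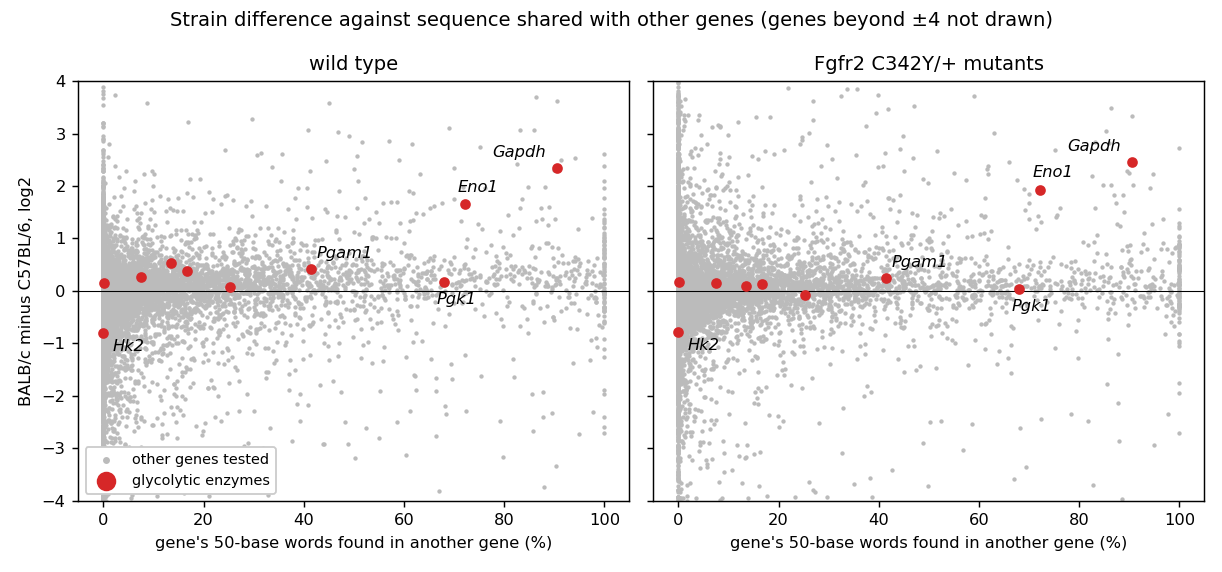
Strain difference of each tested gene, BALB/c minus C57BL/6 on the log2 scale, against the percentage of its 50-base words found in another gene, in wild type (left) and mutants (right), with the 10 enzyme genes in red. Gapdh and Eno1 lie high at the shared end, and Pgk1, with 68.0% of its words shared, lies near 0.

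The Gapdh pseudogenes in the table had lower raw counts than the gene. The 7 pseudogene rows summed to 124 to 176 counts in C57BL/6 samples and 132 to 212 counts in BALB/c samples, while Gapdh itself had 468 to 576 counts in C57BL/6 and 1936 to 3020 in BALB/c. The most similar copies printed above, Gm7336 and Gm10359, are not among those rows. Of the rows, Gm12070 holds 73.8% of the words of Gapdh, with 10 to 28 counts in C57BL/6 and 8 to 18 in BALB/c samples. The rest hold at most 13.9% of the words each. Among these, Gm5177 had 0 to 14 counts in C57BL/6 and 0 in BALB/c samples. To which copy reads of Gapdh were assigned was not tested.

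The genes closest to Gapdh were those with the smallest root mean square difference of centred log2 CPM over the 12 samples. They were Rplp2 at 0.13, A730098P11Rik at 0.20, Rpl22l1 and Rps23 at 0.22 each, and Sfi1 at 0.23. Rplp2, Rpl22l1 and Rps23 encode ribosomal proteins, which as a class have many processed pseudogenes. Their words were shared with other genes by 30.7%, 61.6% and 51.7%, while Sfi1, a centrosomal protein gene, shared 8.04%. Their strain differences were 2.23 to 2.83 in wild type and 2.32 to 2.67 in mutants. None of the enzyme genes was among them. The mean profile of the 10 enzymes was most like that of Npm1, the nucleolar protein nucleophosmin, at 0.05, whose strain differences were 0.45 and 0.37.

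Genes often used as references in quantitative PCR did not differ between strains as 1 group. Of 16 such genes, Gapdh had the largest strain difference in both genotypes, followed in wild type by Ppia, cyclophilin A, at 1.49 in wild type and 1.56 in mutants. Ppia shares 54.3% of its words, and in mutants the authors' deposited table gives it 0.52. Actb, cytoplasmic actin, differed by 0.47 and 0.29. Ywhaz, a 14-3-3 protein, differed by 0.03 and -0.03, Tbp by 0.24 and 0.20, and B2m by 0.05 and -0.22.

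The mutation was compared with wild type inside each strain, and thus inside 1 flow cell. A gene was called where edgeR's quasi-likelihood test gave an adjusted p under 0.05 (Benjamini-Hochberg over all 16190 genes). In C57BL/6, 1 of the 10 enzymes changed. Aldoa was at 206, 218 and 264 CPM in wild type and 272, 300.4 and 288 CPM in mutants. The groups did not overlap, as was so for 41.6% of all genes. The mean rose from 229 ± 30.8 to 287 ± 14.1 CPM (SD, n = 3), a log2 change of 0.32 (SE 0.084, 95% interval 0.14 to 0.51, edgeR adjusted p = 0.0185). Over all genes tested, 23.9% were called in this comparison, 11.3% higher and 12.6% lower, so 1 of 10 is no higher a share than the background. The authors' deposited table gives Aldoa a change of 0.31 with a q-value of 0.000137. The Aldoa call was lost without wild type replicate 1, wild type replicate 2, mutant replicate 5 or mutant replicate 6, with changes of 0.27 to 0.44 over all samples left out in turn, and in a fit of the 6 C57BL/6 samples alone. With total counts in place of TMM factors, Aldoa was not called and Gapdh, Eno1, Tpi1 and Pfkl were called lower, while the median of all genes moved to -0.20.

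Several cell markers moved with Aldoa in C57BL/6. Osteoblast markers were called higher in mutants for 6 of 8 genes, where 11.3% of all genes were called higher and 12.6% lower, and their summed ranges are given above. The 6 markers of macrophages and osteoclasts summed to 3611 to 4429 CPM in wild type and 7554 to 8430 CPM in mutants, with 5 called higher. The 5 chondrocyte markers summed to 4506 to 6618 CPM in wild type and 251 to 2547 CPM in mutants, with 2 called lower. No chondrocyte, osteoblast or macrophage marker was at 0 in a whole group, and their part in the Aldoa change was not tested.

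Gapdh did not pass the test in C57BL/6. The groups did not overlap, and the log2 difference was -0.22 (SE 0.079, -0.40 to -0.05, edgeR adjusted p = 0.0573). Eno1 differed by -0.43 (-0.84 to -0.02, edgeR adjusted p = 0.113) with overlapping ranges. The difference was 0.12 for Gpi1 (-0.00 to 0.24, edgeR adjusted p = 0.128) and 0.21 for Hk2 (-0.10 to 0.52, edgeR adjusted p = 0.290). Ldha, the last enzyme, was at 301, 337 and 416 CPM in wild type and 368, 434 and 338 CPM in mutants, a difference of 0.11 (-0.15 to 0.38). The differences of Pfkl, Tpi1, Pgk1 and Pgam1 lay between -0.07 and 0.05. The median of the 10 was 0.05, against -0.00 over all genes.

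In BALB/c no enzyme gene was called (edgeR, 0 of 10 at an adjusted p under 0.05 and 0 at an unadjusted p under 0.05, and 0 with DESeq2 and limma-voom), where 0.136% of all genes were called. Of the 10, 9 had a negative estimate. Tpi1 had the most negative, -0.17 (-0.36 to 0.01, edgeR adjusted p = 0.469), with 180.1, 169 and 190.1 CPM in wild type and 155, 166 and 157 CPM in mutants. The exception was Hk2 at 0.23 (-0.08 to 0.54, edgeR adjusted p = 0.592). Ranges did not overlap for 4 genes, Aldoa, Ldha, Tpi1 and Pgam1, each lower in mutants, where 20.0% of all genes did not overlap. The median was -0.11, against 0 over all genes. The interval of Gapdh, -0.27 to 0.05, leaves room for a fall of up to 0.27 log2 units.

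**Figure D5:**
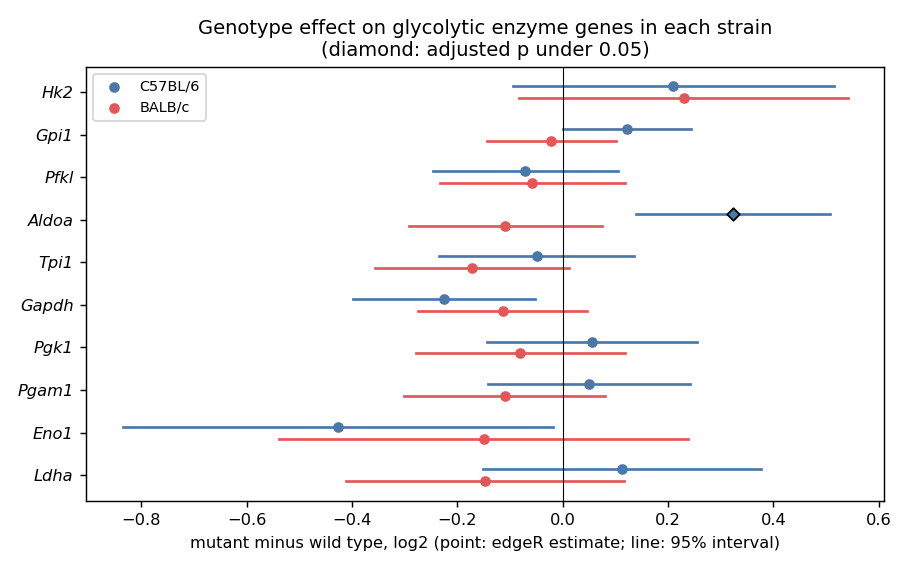
Mutant minus wild type for each enzyme gene on the log2 scale, in C57BL/6 (blue) and BALB/c (red), as edgeR estimates (points) with 95% intervals (lines), and a diamond for an adjusted p under 0.05. Aldoa in C57BL/6, at 0.32, is the single diamond, and most other intervals cross 0.

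The difference between the strains' genotype effects was tested directly, and a constant flow cell effect cancels from it. It passed for Aldoa, whose effect in BALB/c was lower than in C57BL/6 by 0.43 on the log2 scale (estimate -0.43, SE 0.12, edgeR adjusted p = 0.0424), where 5.46% of all genes were called higher and 4.58% lower. The BALB/c mutant sample with the most muscle signal, replicate 16, had 314 CPM of Aldoa, which muscle also expresses. Aldoa in BALB/c was at 326, 324 and 341 CPM in wild type and 314, 307 and 299 CPM in mutants, a difference of -0.11 (edgeR adjusted p = 0.689). This call held in 2 of the 12 fits that each left out 1 sample, with estimates of -0.54 to -0.38. For Gapdh the strains' effects differed by 0.11 (-0.12 to 0.35, edgeR adjusted p = 0.528). Averaged over the strains, 0 of the 10 genes were called, 3 at an unadjusted p under 0.05, and 7.99% of all genes were called. Gapdh had the lowest adjusted p, 0.0744, at -0.17 (-0.29 to -0.05). DESeq2 and limma-voom also called 0 genes in the average.

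The other genes of glucose use were read from lists chosen by function. Over all genes, 11.3% were called higher and 12.6% lower in C57BL/6 mutants, the background for each list count below. Of 16 tested genes for other isozymes and steps of glycolysis, 0 were called higher and 5 lower in C57BL/6 mutants, with a median of -0.25 against -0.00 over all genes. Pklr, the pyruvate kinase of liver and red cells, fell from 7.70 ± 1.33 to 1.99 ± 0.340 CPM (SD, n = 3), a log2 change of -1.95 (SE 0.37, edgeR adjusted p = 0.0045). The 7 erythroid markers in the table moved with it. They summed to 202 to 268 CPM in C57BL/6 wild type, 54.1 to 83.8 in C57BL/6 mutants, 223 to 338 in BALB/c wild type and 436 to 532 in BALB/c mutants, and their part was not tested. Aldoc, the aldolase of brain, fell from 14.6 ± 6.70 to 5.58 ± 2.54 CPM (SD, n = 3; log2 -1.38, edgeR adjusted p = 0.0165). The call of Aldoc was lost without C57BL/6 wild type replicate 1, mutant replicate 5 or mutant replicate 6, with changes of -1.82 to -0.94 over all samples left out. It stood beside brain markers that summed to 71.7 to 135 CPM in wild type and 13.3 to 51.8 CPM in mutants, whose part was not tested. With total counts the list had 0 higher and 10 lower, with a median of -0.45. Pkm, the pyruvate kinase of most tissues, was at 527 ± 33.2 and 505 ± 40.8 CPM (SD, n = 3; log2 -0.06, edgeR adjusted p = 0.574).

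Among 14 genes of glucose and lactate transport and of pathway control, 3 were called higher and 2 lower in C57BL/6 mutants, and with total counts 1 higher and 4 lower. Pdk4, a kinase that shuts pyruvate dehydrogenase, rose from 27.5 ± 3.23 to 59.3 ± 12.3 CPM (SD, n = 3), a log2 change of 1.11 (SE 0.17, edgeR adjusted p = 0.00137). It was called in every alternative and left-out sample, at 0.91 to 1.25. Averaged over strains it rose by 0.76 (edgeR adjusted p = 0.00405), while in BALB/c alone it differed by 0.41 and was not called (edgeR adjusted p = 0.361). In C57BL/6 mutants Pdk2, of the same family, rose by 0.36 (edgeR adjusted p = 0.0211). Slc2a4, the insulin-responsive glucose transporter, fell by 0.73 (edgeR adjusted p = 0.0114), and Pfkfb3, which makes the activator of phosphofructokinase, fell by 0.29 (edgeR adjusted p = 0.0297). Pdk2 and Pfkfb3 were each called in 9 of the 12 fits that left out 1 sample, at 0.22 to 0.42 and -0.36 to -0.19. Both calls were lost without wild type replicate 1 or mutant replicate 6 of C57BL/6. The call of Pdk2 was also lost without wild type replicate 3, and that of Pfkfb3 without wild type replicate 2.

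Calls in neighbouring pathways in C57BL/6 mutants depended in part on the scaling. Of 7 pentose phosphate genes, 0 were called higher and 4 lower, with a median of -0.19: Tkt changed by -0.22, G6pdx, the entry enzyme, by -0.23, Taldo1 by -0.19 and Rpia by -0.41. All 4 calls were lost without wild type replicate 1 and without mutant replicate 6. Tkt and Rpia were each called in 10 of the 12 fits that left out 1 sample, at -0.27 to -0.17 and -0.49 to -0.25. G6pdx was called in 8, at -0.26 to -0.17, and lost also without wild type replicate 2 or mutant replicate 5. Taldo1 was called in 7, at -0.23 to -0.15, and lost also without those and without BALB/c mutant replicate 18. Of 20 genes of pyruvate oxidation and the citric acid cycle, 10 were called higher and 0 lower, with a median of 0.18. Mdh2, malate dehydrogenase, rose by 0.31 (edgeR adjusted p = 0.0101). Of 18 targets and parts of the hypoxia-inducible factor, which drives glycolytic genes, 4 were called higher and 0 lower, with a median of 0.06, and Vegfa rose by 0.41 (edgeR adjusted p = 0.00258). No gluconeogenesis gene of 6 tested was called. The erythroid, brain, chondrocyte, macrophage and osteoblast markers differed between these groups as given above. The 7 neutrophil markers summed to 215 to 385 CPM in C57BL/6 wild type and 110 to 244 CPM in C57BL/6 mutants, with 4 called lower. The part of all these markers in the list counts was not tested. With total counts in place of TMM factors, the median of all genes moved to -0.20, and 13.2% of calls were higher in mutants against 47.5% with TMM. The pentose phosphate list then had 0 higher and 4 lower, with a median of -0.39. The list of pyruvate oxidation and the citric acid cycle had 0 higher and 1 lower, with a median of -0.01, the hypoxia list 1 higher and 4 lower, with a median of -0.13, and the gluconeogenesis list 0 higher and 1 lower. In BALB/c, 0 genes of each of these lists were called under either scaling.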

How the data were processed

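RNA was sequenced from 12 samples in 4 groups of 3. Bcl2fastq, TopHat2 2.0.6, HTSeq, DESeq2 and the mm10 build are named in the submitters' processing notes, with no role stated. How reads that match several places were treated, read length and strandedness are not given in the sources used here. The authors deposited whole-number counts per gene, all even (0% odd), and RPKM values, which were used here only to derive the library total behind them. The authors also deposited log2 fold changes with p-values and q-values for 4 group comparisons, which were copied. Coordinates are those of the deposited table, and 99.4% of 20720 symbols overlapped the RefSeq gene of that name on GRCm38.

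Counts were filtered with filterByExpr (minimum count 10, minimum total 15), scaled with TMM and fitted with the quasi-likelihood test of edgeR 4.0.16 in R 4.3.3, with 1 mean per group over all 12 samples and 8 residual degrees of freedom. P-values were adjusted over 16190 genes, and 0.05 was the threshold. Log2 CPM used a prior count of 2. Alternatives were DESeq2 1.42.0, limma 3.58.1 voom, other scalings, no filter, counts divided by 2, fits of the compared groups alone and each sample left out. The script was tested on simulated counts. Word sharing used 1 transcript per gene, the RefSeq-paired one nearest in length to the table, against all GENCODE vM21 transcripts on both strands, and 90.3% of tested genes had a value.

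The 10 enzymes, the gene lists and the tests were chosen with earlier results of these data known. All 10 enzymes were named, with at most 4 called genes per list, those of lowest p-value, and the 5 genes nearest in profile. Some genes that this rule picks are not reported here. The comparison with the authors' deposited table was added after seeing the data. The lowest count of an enzyme in any sample was 74, for Eno1, whose standard errors were the largest.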

Additional observations from a re-analysis of the deposited data

Results flagged for a closer look

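For 10 of the genes that the naming rule picks, the enzymes and at most 4 genes per pathway list, the test of the difference between the genotype effects of the strains (BALB/c minus C57BL/6, edgeR quasi-likelihood test over all genes) passed the threshold. Of all genes, 5.46% were called higher and 4.58% lower in this test. Aldoa differed by -0.43 on the log2 scale (adjusted p = 0.0424). Among the other glycolytic genes Pklr differed by 2.17 (adjusted p = 0.0237) and Hk3, a hexokinase of blood cells, by 0.76 (adjusted p = 0.0275). The 7 neutrophil markers summed to 215 to 385 CPM in C57BL/6 wild type and 110 to 244 CPM in C57BL/6 mutants. In BALB/c they summed to 550 to 649 CPM in wild type and 771 to 845 CPM in mutants, and their part was not tested. Slc2a4 differed by 0.92 (adjusted p = 0.0346). Taldo1 of the pentose phosphate pathway differed by 0.32 (adjusted p = 0.0346). Mdh2 of the citric acid cycle differed by -0.35 (adjusted p = 0.0472). Dld, a pyruvate dehydrogenase subunit of the same list, also passed at -0.30 (adjusted p = 0.0415), and is named outside that rule, after its values were seen. The hypoxia genes Vegfa and Ndrg1 differed by -0.35 (adjusted p = 0.0436) and -0.28 (adjusted p = 0.0182). Of the reference genes, Gusb differed by -0.60 (adjusted p = 0.0158) and Rplp0 by -0.41 (adjusted p = 0.0435). For 9 of the 10 genes picked by the rule the effect in C57BL/6 passed the threshold and that in BALB/c did not, and for Hk3 neither did. Most of these calls were lost in some fits that left out 1 of the 12 samples. Gusb was called in 12 of the 12 fits, Pklr and Ndrg1 in 10 each, Hk3 and Taldo1 in 5 each, Rplp0 in 4, Slc2a4 in 3, and Aldoa, Mdh2 and Vegfa in 2 each.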

How the results depend on the processing

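Gapdh stood 2.24 to 2.39 log2 units higher in BALB/c wild type and 2.41 to 2.58 higher in BALB/c mutants under every alternative run. These alternatives all refit the same deposited counts, so they cannot show how another counting of reads would change the difference. The authors' deposited table gives 0.40 in wild type and 0.45 in mutants. Against the median of the other 9 enzymes in place of their mean, Gapdh was at -3.19, -3.45, -1.22 and -1.20 log2 CPM in C57BL/6 wild type, C57BL/6 mutants, BALB/c wild type and BALB/c mutants.

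With total counts as the scaling, 4 enzymes were called in C57BL/6 mutants, 0 in the test between strains and 1, Gapdh, in the average over strains. With only the compared groups fitted, 0 were called in C57BL/6, and with no filter 0 were called between strains. Fits that left out 1 sample called 0 to 2 enzymes in C57BL/6, 0 to 1 between strains and 0 to 1 in the average. The second gene in C57BL/6 was Gapdh, without BALB/c wild type replicate 15. The gene in the average was Aldoa, without C57BL/6 wild type replicate 3. In BALB/c 0 were called in each fit. The cause was not tested beyond the construction of each fit.

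Estimates that changed sign were at most 0.14 in size after the change. Some were larger in the main fit. There the C57BL/6 effect of Ndrg1 was 0.18 and called (edgeR adjusted p = 0.0126), and the test between strains gave Pgam1 -0.16. With total counts, the C57BL/6 genotype effect became -0.14 for Pgk1, -0.0729 for Ldha, -0.14 for Pgam1, -0.0717 for Gpi1 and -0.0144 for Ndrg1. The test between strains became 0.0938 for Pgk1, 0.10 for Tpi1, 0.0686 for Pgam1 and 0.0851 for Gpi1. For Gpi1 the BALB/c effect became 0.0134, the average -0.0291 and the strain differences -0.0429 and 0.0422. With 1 sample left out, the C57BL/6 effect ran from -0.0477 to 0.14 for Pgk1, -0.13 to 0.0245 for Tpi1 and -0.0616 to 0.12 for Pgam1, and the BALB/c effect of Gpi1 from -0.0342 to 0.0038. The test between strains ran from -0.0373 to 0.0672 for Pfkl and -0.12 to 0.18 for Hk2. The average ran from -0.0615 to 0.0329 for Pgk1, -0.0677 to 0.0543 for Ldha and -0.0835 to 0.0073 for Pgam1, and the strain difference of Pgk1 in mutants from -0.0171 to 0.14. No paired analysis was run, because the labels do not say whether samples were paired.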
